A study of Mus musculus with 25 samples.

Results

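Neuronal and synaptic transcripts were followed through 9 genes chosen by symbol: Snap25, Syt1, Syn1, Nefl, Nefm, Nrgn, Slc17a7, Gad1 and Stmn2. All 9 were among the 23351 genes of the table. Snap25 was the only one at 1 RPKM or more in at least 7 libraries, the filter that left 4319 genes for testing. RPKM is the number of reads scaled to the length of the gene and to the reads of the library.

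Laser capture, in which selected spots of a tissue section are cut out by a laser, gave the 25 mouse brain libraries. The labels call all of them oligodendrocyte precursor cells (OPC), the dividing glia that give rise to myelin-forming oligodendrocytes. There were 10 libraries labelled Control, 8 from Day 5 and 7 from Day 15 of white matter stroke, which damages myelinated tracts by loss of blood flow. Not given in the sources used here were strain, age of the animals, how cells were picked and which animal each library came from. Libraries that share an animal would make p-values too small, and the p-values measure only the spread between these libraries, which may be technical.

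As background, neurons keep their cell bodies in grey matter and send axons through white matter, where they run among oligodendrocytes and OPC. Most neuronal mRNA lies in the cell body and dendrites, with a smaller pool in axons. At synapses, docked vesicles fuse with the membrane through the SNARE proteins when calcium enters, and OPC in white matter receive such contacts from axons. In cells other than neurons, the repressor REST holds many neuronal genes low.

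Syn1 is a textbook target of REST, so the upstream part of its promoter is shown as an example of how such a gene is built. RefSeq promoter windows, 250 bases before to 50 after a gene's start on build GRCm38.p6, matched 5 of the 9 genes (Gad1, Slc17a7, Nrgn, Syt1 and Syn1). Snap25, Nefl, Nefm and Stmn2 had no entry. The sequence below lies on the minus strand of chrX:20921049-20921168, 250 to 131 bases before the Syn1 start, and reads 5′ to 3′. Capitals mark CAGCACC, the letters that open the REST element, and TGACGTCA, the letters of a cyclic AMP response element.
Syn1: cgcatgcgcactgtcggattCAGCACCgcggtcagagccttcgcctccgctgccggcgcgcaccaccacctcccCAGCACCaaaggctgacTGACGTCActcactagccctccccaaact
Searched on both strands, CAGCACC was in 7.14% of all 32851 promoter windows and TGACGTCA in 1.79%. The windows of Syn1 held 2 matches of the first and 1 of the second, and those of the other 4 genes with an entry held neither. These are matches of letters, with no measurement of binding behind them.

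The summed level of the 9 neuronal genes was low beside that of mature oligodendrocyte genes, and less so beside that of OPC genes. The lists differ in length, so their sums are not levels per gene. The summed RPKM of the 9 neuronal genes ran from 1.55 to 9.83 in controls (median 7.20), from 1.41 to 4.63 at Day 5 (median 2.46) and from 0.0643 to 62.4 at Day 15 (median 2.71). The summed RPKM of 15 genes of mature oligodendrocytes had medians of 831, 331 and 192 in the same order, and that of 15 OPC genes had medians of 24.0, 34.8 and 44.8. None of the OPC genes, against which the label was checked, was at 0 throughout a group. In controls the OPC genes reached 1 RPKM in 36.7% of gene and library combinations. This was below the 86.0% of the mature oligodendrocyte genes and the 58.3% of 12 astrocyte genes. It was also below the 50.7% of 14 microglia genes and the 39.2% of 12 macrophage and leukocyte genes, and above the 11.8% of 11 endothelial and pericyte genes. In such bulk material, fewer cells of a type and less RNA per cell cannot be told apart.

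**Figure D1:**
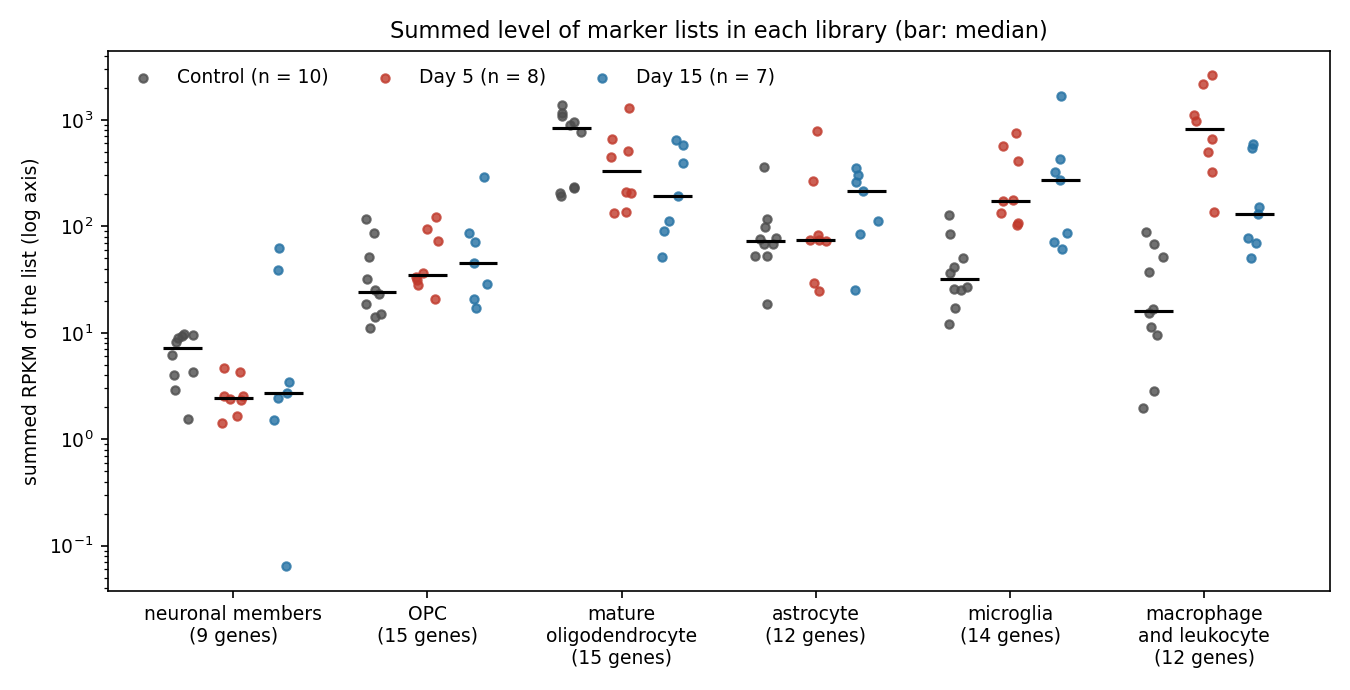
Summed RPKM (log axis) of the 9 neuronal genes and of 5 marker lists in each library, with 1 point per library, coloured by group, and bars at the medians. The median neuronal sum lies below the median mature oligodendrocyte sum in each group, with 7.20 against 831 RPKM in controls, and 1 Day 15 library sits at 0.0643 RPKM.

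The libraries themselves differed widely. Genes at 1 RPKM or more numbered from 1306 to 6592 per library, and the RPKM sum without Rn45s, the ribosomal RNA precursor, from 7210 to 69709. Rn45s took 73.4% of all RPKM in Control replicate 5 and 68.0% in Day 5 replicate 10. The number of reads is unknown, and of 10 genes that nearly every cell uses, Hprt and Pgk1 were each listed at 0 in 1 library, so a value of 0 is given here as listed and not as absence.

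Values above 0 were common for the 9 genes and values of 1 RPKM or more were not. Of 90 gene and library combinations in controls 77 were above 0 (85.6%), as were 66 of 72 at Day 5 (91.7%) and 47 of 63 at Day 15 (74.6%), beside 56.0%, 74.4% and 59.2% over all genes. At 1 RPKM or more stood 17 of the 90 control combinations (18.9%), 7 of the 72 from Day 5 (9.72%) and 8 of the 63 from Day 15 (12.7%). Over all 23351 genes the share at 1 RPKM or more went the other way between controls and Day 5, being 10.6% in controls, 18.1% for Day 5 and 12.8% for Day 15. With a lower bar the neuronal genes did not show this: at 0.1 RPKM or more their shares were 46.7%, 56.9% and 42.9%, beside 31.1%, 46.3% and 33.1% of all genes. Leaving out Control replicate 5 and Day 5 replicate 10, the libraries rich in Rn45s, the shares at 1 RPKM were 19.8% in controls and 9.52% at Day 5. Snap25 alone gave 8 of the 17 control detections, and without it the shares were 11.2% in controls, 6.25% at Day 5 and 8.93% at Day 15. These shares are descriptions and were not tested.

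Library by library, from 0 to 3 of the 9 genes reached 1 RPKM. In controls, replicates 2, 6 and 7 held 3 such genes each: Snap25, Syt1 and Syn1 in replicate 2, Snap25, Syt1 and Slc17a7 in replicate 6, and Snap25, Syn1 and Nefm in replicate 7. Control replicates 8 and 10 held Snap25 and Syt1, replicates 3, 4 and 9 held Snap25 alone, replicate 5 held Syt1 alone and replicate 1 held none. At Day 5, replicates 1 and 10 held Snap25, replicate 8 held Snap25 and Nefm, replicate 4 held Nefm, replicate 6 held Syn1 and Nefl, and replicates 3, 7 and 9 held none. At Day 15, replicate 6 held Snap25, Syn1 and Stmn2, replicate 3 held Snap25 and Stmn2, replicate 8 held Snap25, replicate 5 held Nefm, replicate 9 held Syt1, and replicates 2 and 7 held none. The combination of genes thus differed from library to library, and Snap25 was the one that recurred, at 1 RPKM or more in 14 of 25 libraries.

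**Figure D2:**
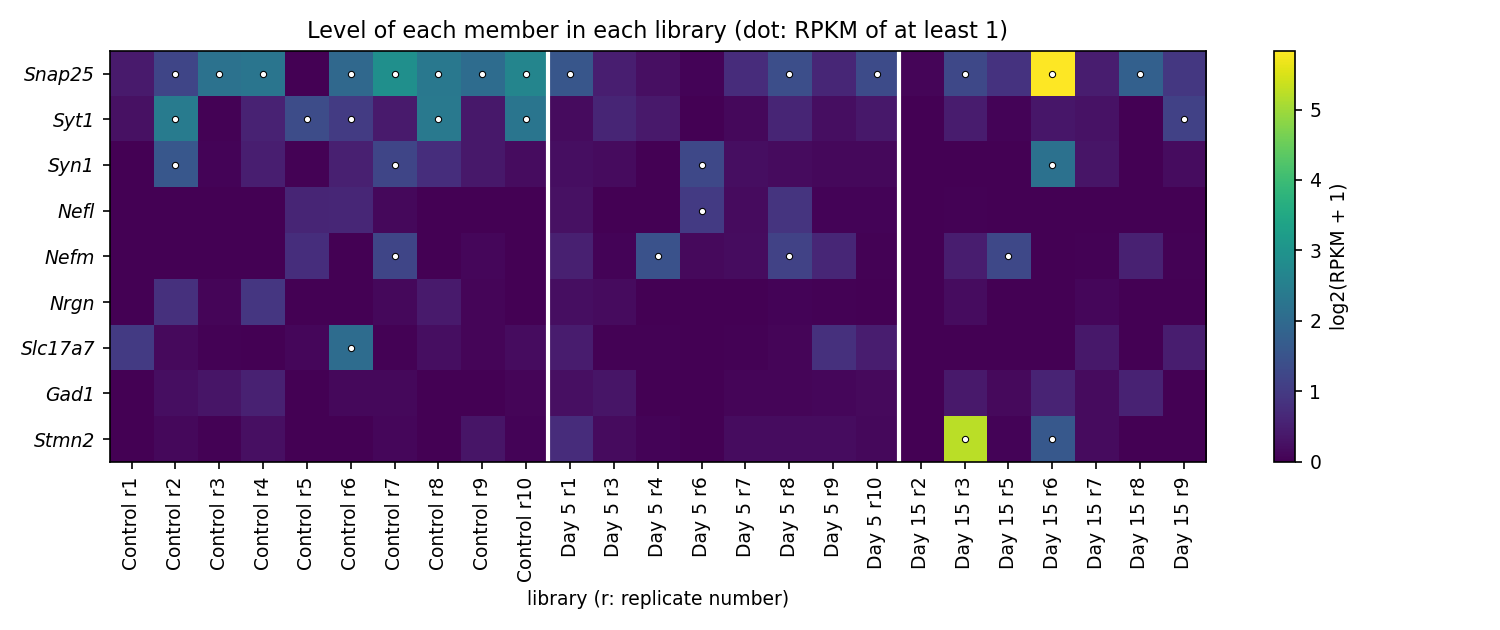
Level of each of the 9 genes, as log2(RPKM + 1) by colour, in each of the 25 libraries, grouped as Control, Day 5 and Day 15, with a dot where the RPKM was at least 1. Snap25 carries 14 of the 32 dots, and the brightest cells are Snap25 in Day 15 replicate 6 and Stmn2 in Day 15 replicate 3.

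Snap25 encodes the SNARE protein on the presynaptic membrane that helps pull vesicles into fusion. It was above 0 in all 25 libraries. In controls it ran from 0.00379 to 6.50 RPKM with a median of 3.40, at Day 5 from 0.0458 to 1.97 with a median of 0.608, and at Day 15 from 0.0574 to 56.0 with a median of 0.938. Of the 10 controls 7 lay above every Day 5 library, while Control replicates 1 and 2, at 0.332 and 1.34 RPKM, lay within the Day 5 range and Control replicate 5, at 0.00379 RPKM, below it, so the groups overlap. Day 15 had 6 libraries between 0.0574 and 2.46 RPKM and replicate 6 alone at 56.0.

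The group means of Snap25 were 3.11 ± 2.07 RPKM (SD, n = 10) in controls and 0.873 ± 0.729 RPKM (SD, n = 8) at Day 5. On the log2(RPKM + 1) scale, which understates changes of low genes, the Day 5 difference from control was -0.995 (SE 0.57). It did not pass in limma, a linear model fitted over all 4319 genes with moderated variances (p = 0.0850, Benjamini-Hochberg adjusted p = 0.254). In this comparison 6.04% of the genes tested were called at an adjusted p under 0.05, 6.02% as higher and 0.0232% as lower. The 9 genes, of which 1 was tested, gave 0 of 1 called by limma and 0 of 1 at an unadjusted p under 0.05. The median difference of all genes was 0.61. Snap25 passed the filter mainly through the controls, where 8 of 10 libraries reached 1 RPKM against 3 of 8 at Day 5 and 3 of 7 at Day 15, so no rank among the genes kept is drawn from it. With the libraries brought to one scale, the Snap25 difference was -1.64 by upper quartiles, -1.58 by RPKM sums that leave Rn45s out and -1.75 by quantile normalization, beside medians of all genes of 0.10, 0.15 and -0.02 (limma adjusted p = 0.227, 0.214 and 0.153). With a pseudocount of 0.1 the difference was -1.54 (limma adjusted p = 0.219).

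At Day 15 the mean of Snap25 was 8.87 ± 20.8 RPKM (SD, n = 7), of which replicate 6 gave 90.2% of the group's sum. Without that library the mean was 1.01 ± 0.847 RPKM (SD, n = 6). The difference from control was -0.20 (SE 0.59, limma adjusted p = 0.968) with it and -0.90 (limma adjusted p = 0.596) without it. The difference from Day 5 was 0.80 (SE 0.62, limma adjusted p = 0.565) with it and 0.10 (limma adjusted p = 0.948) without it. Neither comparison called Snap25, with 0 of 1 at an unadjusted p under 0.05, in a background of 0.0926% of genes called at Day 15 against control and 0% between the stroke days. The comparisons of Day 5 and Day 15 with control share the same 10 control libraries.

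The labels name no batch, and Snap25 was also read within 2 ranges of replicate numbers, whose Snap25 values overlap in every group. The ranges differed otherwise in controls: genes above 0 numbered from 9588 to 14142 in numbers 1 to 6 and from 16013 to 17407 in numbers 7 to 10. At Day 5 and Day 15 these counts overlapped between the ranges. Among numbers 7 to 10 the 4 controls lay between 3.20 and 6.50 RPKM, the 4 Day 5 libraries between 0.553 and 1.65 and the 3 Day 15 libraries between 0.387 and 2.46. Controls did not overlap with either stroke day there, but each group held only 3 or 4 libraries. The share of all genes with such a gap is not given here. The differences in numbers 7 to 10 were -1.47 at Day 5 and -1.42 at Day 15 (limma adjusted p = 0.214 and 0.734). Among numbers 1 to 6 the controls ran from 0.00379 to 3.81 RPKM, Day 5 from 0.0458 to 1.97 and Day 15 from 0.0574 to 56.0, and all overlapped. The differences there were -0.75 at Day 5 and 0.66 at Day 15 (limma adjusted p = 0.637 and 0.910).

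**Figure D3:**
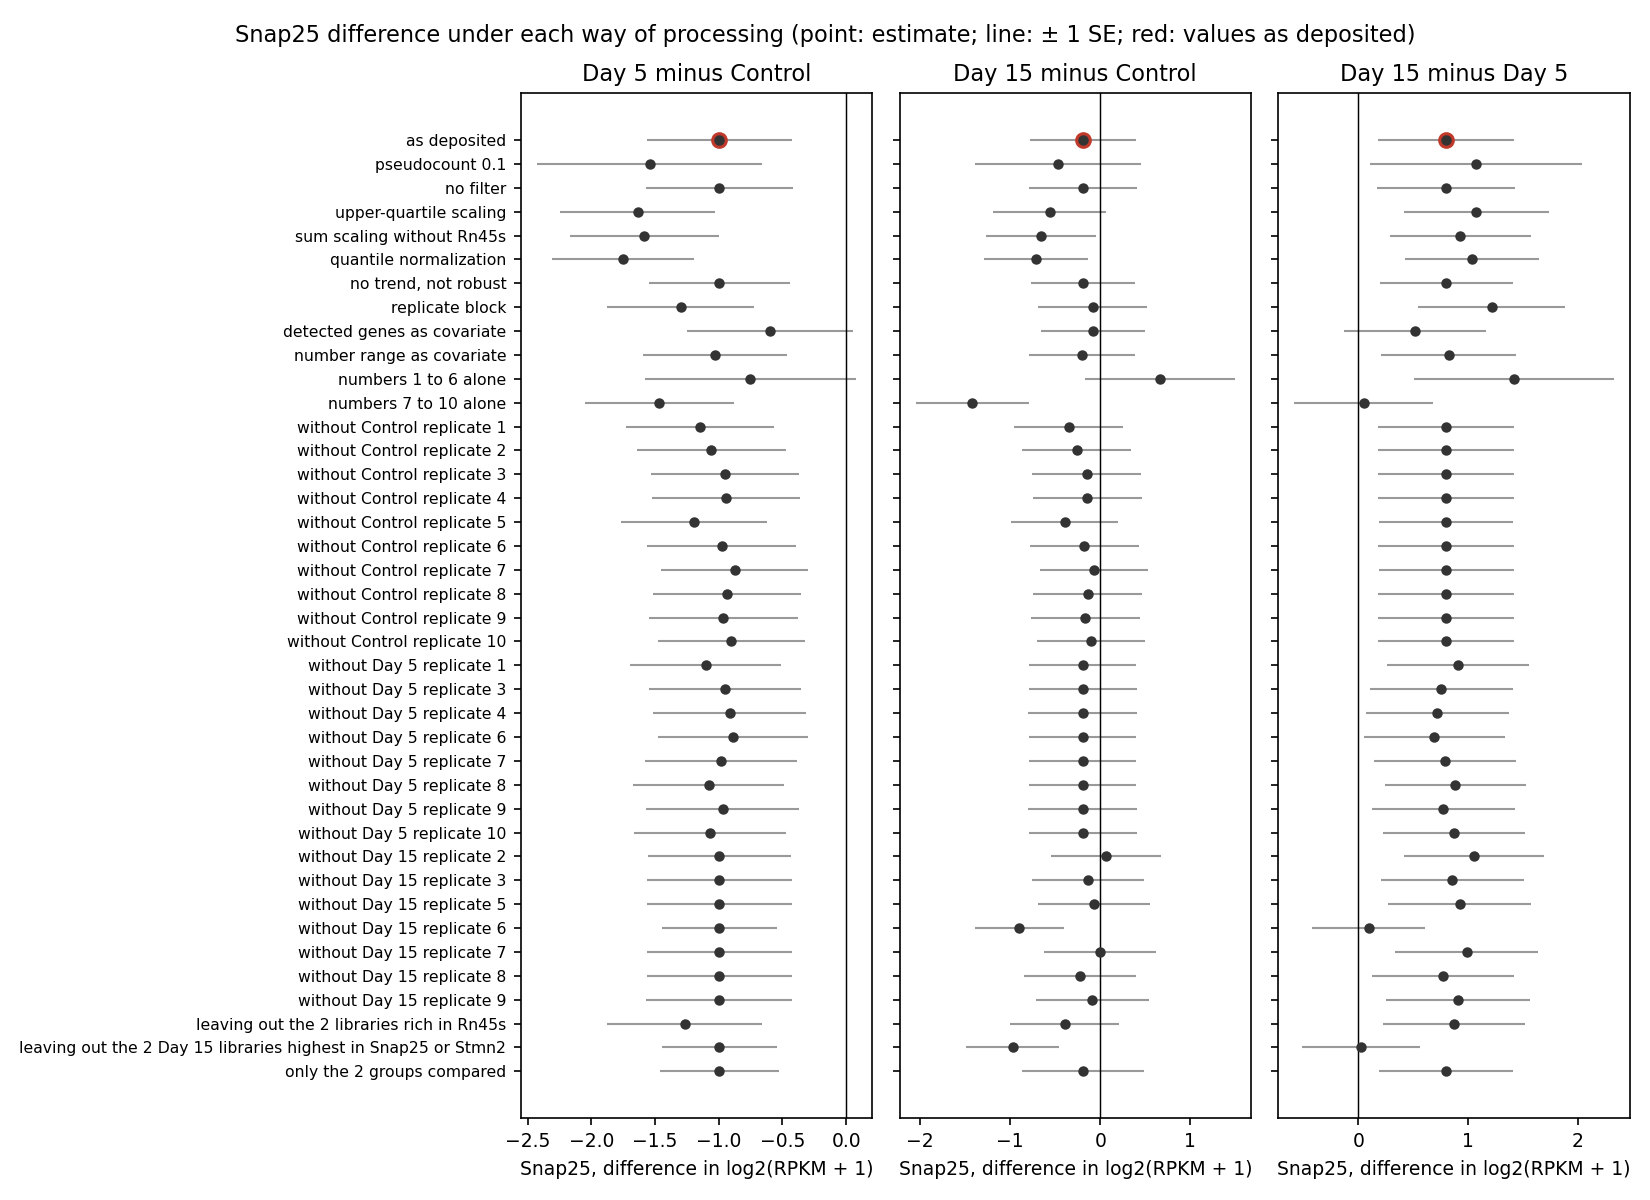
Difference of Snap25 in log2(RPKM + 1) for the 3 comparisons (panels) under each way of processing (rows), with the estimate as a point, 1 SE to either side as a line and the values as deposited in red. All Day 5 estimates lie below 0, from -1.75 to -0.60, while the Day 15 estimates against control run from -1.42 to 0.66.

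Read as its place among all genes of the same library, which no scaling of the library can move, Snap25 stood at a median percentile of 96.9 in controls, 81.5 at Day 5 and 85.3 at Day 15. In Control replicate 5, where Rn45s took most of the RPKM, it stood at 56.2, and in Day 15 replicate 6 at 99.5. The genes whose levels followed Snap25 most closely over the 25 libraries, among 4192 named genes compared, were Rabgap1l (Spearman's rho 0.70), Cul4a (0.60) and Dynll2 (0.60). How high the closest of so many genes would stand by chance was not tested. These values are descriptions over libraries that also differ in their RPKM sums and their numbers of detected genes.

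Syt1 and Syn1 belong to the vesicle itself: synaptotagmin 1 is the calcium sensor of release, and synapsin 1 tethers vesicles in reserve. Syt1 ran from 0.0220 to 4.40 RPKM in controls (median 0.751), from 0 to 0.529 at Day 5 (median 0.227) and from 0 to 1.20 at Day 15 (median 0.218). Control replicates 2, 8 and 10 held 4.40, 4.14 and 3.78 RPKM, and 5 controls lay above every Day 5 library, but the other 5 lay within the Day 5 range. It was among the 8 genes the filter left out, so it was tested in a fit of all 22610 genes above 0 in any library. There its difference from control on the log2(RPKM + 1) scale was -0.79 at Day 5 (SE 0.32, p = 0.0188, limma adjusted p = 0.276) and -0.78 at Day 15 (SE 0.33, p = 0.0260, limma adjusted p = 0.942), and neither passed. That fit called 0.106% of genes at Day 5, 0% at Day 15 and 0% between the stroke days.

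Syn1 ran from 0 to 2.01 RPKM in controls (median 0.344), from 0.00471 to 1.39 at Day 5 (median 0.120) and from 0 to 3.52 at Day 15 (median 0.0134). Day 5 replicate 6 and Day 15 replicate 6 stood apart at 1.39 and 3.52, above all other libraries of their groups, which reached 0.162 and 0.252. In the GENCODE M21 annotation Timp1, an inhibitor of matrix proteases, lies on the other strand inside Syn1 and shares 0 exon bases with it. Timp1 was highest in Day 5 replicate 3 at 4.91 RPKM, where Syn1 was at 0.120. The difference of Syn1 from control was -0.24 at Day 5 and -0.14 at Day 15 (limma adjusted p = 0.699 and 1).

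Nefl and Nefm encode the light and medium neurofilament chains that fill and widen axons. Nefl was near the bottom throughout, from 0 to 0.535 RPKM in controls (median 0.00652), from 0 to 1.00 at Day 5 (median 0.0773) and from 0 to 0.0259 at Day 15, where 4 of 7 libraries were listed at 0. The Nefl ranges of all groups overlap, and the difference of Nefl between Day 15 and Day 5 was -0.29 (p = 0.0535, limma adjusted p = 0.619). Nefm was listed at 0 in 5 of 10 controls and reached 1.31 RPKM in replicate 7, with a median of 0.00100. It was above 0 in all 8 Day 5 libraries, from 0.0230 to 1.75 RPKM with a median of 0.285, and ran from 0 to 1.39 at Day 15 with a median of 0.0288. The groups overlap, and the Day 5 difference of Nefm was 0.31 (limma adjusted p = 0.533). Both genes sit side by side, and in the GENCODE M21 annotation they share 1108 exon bases on opposite strands. The sources used here do not say whether strand was used in counting, so reads of the pair may not be told apart.

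Stmn2 encodes stathmin 2, a microtubule regulator of growing axons. It ran from 0 to 0.248 RPKM in controls (median 0.0292) and from 0 to 0.669 at Day 5 (median 0.134). At Day 15 replicate 3 held 36.4 RPKM and replicate 6 held 2.06, while the other 5 libraries lay at or below 0.130, so replicate 3 gave 94.2% of the group's sum. The Day 15 difference from control was 0.93 (SE 0.48, p = 0.0671, limma adjusted p = 0.942), and without replicate 3 it was 0.22 (limma adjusted p = 0.989). Replicate 3 had Snap25 at 1.41 RPKM and Syn1 at 0, and replicate 6 had Nrgn and Slc17a7 at 0, while its Snap25, Syn1 and Gad1, at 56.0, 3.52 and 0.494 RPKM, were the highest of the Day 15 libraries. Replicates 3 and 6 had the highest sums of the 101 neuronal genes of the wider lists, 316 and 304 RPKM, against 22.5 to 223 in the other 5 Day 15 libraries. The 101 include the 9 genes, which gave 39.1 RPKM of the sum in replicate 3 and 62.4 RPKM in replicate 6.

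Nrgn encodes neurogranin, a calmodulin-binding protein of cortical dendritic spines, and never reached 1 RPKM. It ran from 0.00429 to 0.905 RPKM in controls (median 0.0609), from 0 to 0.165 at Day 5 (median 0.0146) and from 0 to 0.150 at Day 15 (median 0.00235). Control replicates 2, 4 and 8 lay above every stroke library, and the differences were -0.19 at Day 5 and -0.20 at Day 15 (limma adjusted p = 0.452 and 0.942).

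Slc17a7 and Gad1 mark the main kinds of neuron: the vesicular glutamate transporter VGLUT1 of cortical excitatory cells, and the enzyme that makes GABA in inhibitory cells. Slc17a7 ran from 0 to 3.18 RPKM in controls (median 0.0937), from 0 to 0.760 at Day 5 (median 0.0451) and from 0 to 0.386 at Day 15, where 4 of 7 libraries were listed at 0. Control replicate 6 held 66.5% of the control sum. Gad1 never reached 1 RPKM, running from 0 to 0.445 in controls (median 0.0709), from 0 to 0.266 at Day 5 (median 0.0719) and from 0.00691 to 0.494 at Day 15 (median 0.124). The groups overlap for both genes. The differences from control were -0.15 at Day 5 and -0.27 at Day 15 for Slc17a7 (limma adjusted p = 0.771 and 0.942), and -0.02 and 0.13 for Gad1 (limma adjusted p = 0.961 and 0.942).

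Of the 8 genes tested only without the filter, 0 were called by limma in each of the 3 comparisons. At an unadjusted p under 0.05 there was 1 at Day 5 and 1 at Day 15 against control, Syt1 in both, and 0 between the stroke days. Of all 22610 genes in that fit 3102, 819 and 1809 were under the same threshold.

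**Figure D4:**
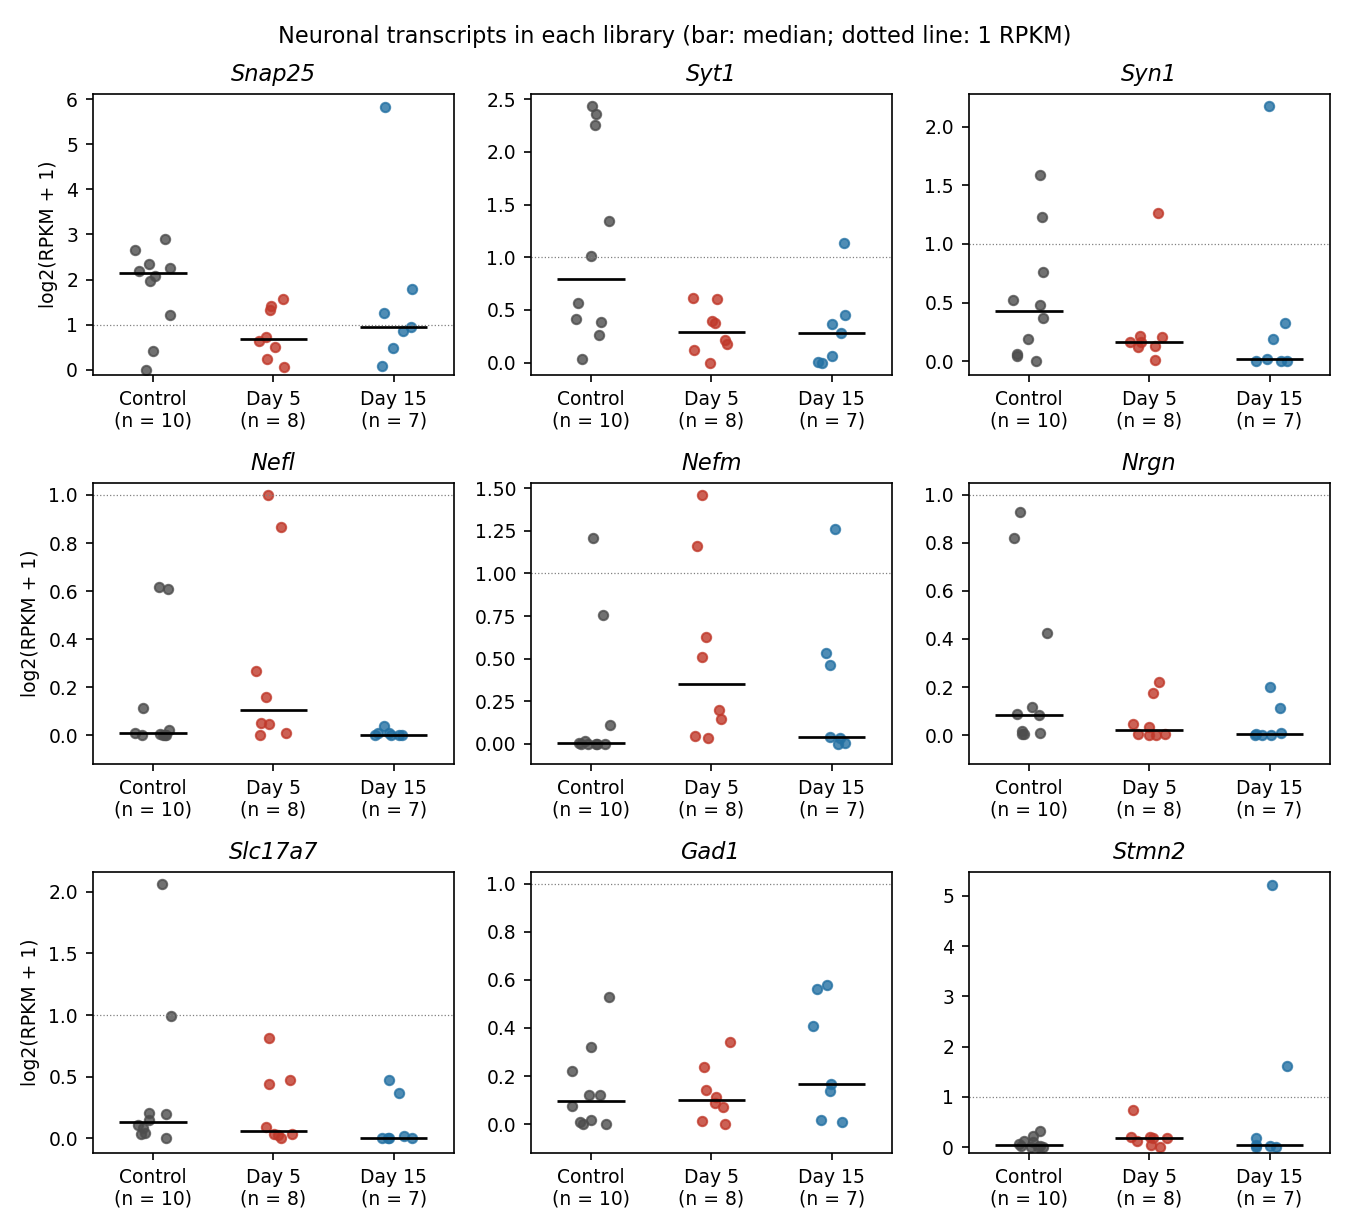
Level of each gene (one panel each, with its own axis) as log2(RPKM + 1) in Control (n = 10), Day 5 (n = 8) and Day 15 (n = 7) libraries, with 1 point per library, a bar at the median and a dotted line at 1 RPKM. Snap25 has most controls above the Day 5 libraries, which end at 1.97 RPKM, and the single high points at Day 15 are Snap25 at 56.0 and Stmn2 at 36.4 RPKM.

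Ordered by mean log2(RPKM + 1) over all libraries, the levels ran Snap25, Syt1, Syn1, Stmn2, Nefm, Slc17a7, Gad1, Nefl and Nrgn. Snap25 exceeded Syt1 in 19 of 25 libraries, by 0.80 ± 1.35 (SD, n = 25) on that scale. For every pair of neighbours in this order the mean difference was smaller than its SD, so no step between neighbours exceeded the spread. The order pools groups that differ: Stmn2 was rank 9 of 9 in controls, rank 7 at Day 5 and rank 2 at Day 15, where replicate 3 held 94.2% of its sum. Snap25 was the highest of the 9 genes in 13 of 25 libraries. In controls Syt1 came next with a mean of 1.11, at Day 5 Nefm with 0.52 and at Day 15 Stmn2 with 1.01, and these steps too were within the spread.

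A wider set of 105 neuronal genes in 6 lists was read in the same fit, of which 101 were in the table and 23 passed the filter. At Day 5 none of the 23 was called by limma in either direction, with 3 at an unadjusted p under 0.05, beside 1121 of all 4319 genes. Their median difference was -0.12 and 16 of 23 lay below 0, while the median of all genes was 0.61 and 15.1% of all genes lay below 0. With libraries scaled by upper quartile, by sum or by quantiles, the median of the 23 was -0.63, -0.54 or -0.75. The medians of all genes were then 0.10, 0.15 and -0.02. With detected genes as a covariate the median of the 23 was -0.60, beside 0.07 for all genes. For the 6 genes at a mean RPKM of at least 5 it was -0.52, beside 0.89 for all genes at that level. With a pseudocount of 0.1 the median of the 23 was -0.20, beside 1.22. It lay nearer 0 with the replicate number as a block, at -0.04 beside 0.72. Without the libraries rich in Rn45s it was -0.01 beside 0.62, and in replicate numbers 1 to 6 it was 0.00087 beside 0.79. On leaving out single libraries the median of the 23 ran from -0.33 to -0.02. At Day 15 against control none was called, 3 had an unadjusted p under 0.05 beside 383 of 4319 genes, the median was -0.09 and 14 of 23 lay below 0, beside 37.9% of all genes. The Day 15 median of the 23 was -0.40, -0.50 and -0.35 with the same scalings and -0.53 in replicate numbers 7 to 10. The medians of all genes were 0.17 as deposited, -0.02, -0.10 and -0.03 with these scalings and -0.02 in replicate numbers 7 to 10. The median of the 23 turned to 0.04 without Day 15 replicate 7, beside 0.19 for all genes. In replicate numbers 1 to 6 it turned to 0.11, beside 0.31. For the 6 genes at a mean RPKM of at least 5 the Day 15 median was -0.63, beside 0.35 for all genes at that level. Between Day 15 and Day 5 none was called, 1 had an unadjusted p under 0.05 beside 633 of 4319 genes and the median was -0.01, beside -0.44 for all genes.

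By role, 8 of 22 genes of the synaptic vesicle and its release machinery passed the filter, with a median Day 5 difference of -0.19 and 6 of 8 below 0. The postsynaptic list had 6 of 19 tested (median -0.14, 4 below 0) and the axonal cytoskeleton list 4 of 16 (median -0.55, 4 below 0). The list of transmitter synthesis and transport had 2 of 14 tested, both above 0, and the neuronal identity list 3 of 18 (median -0.12, 2 below 0). None of 12 interneuron genes passed the filter. Each list had 0 called genes in either direction at either day.

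Kif5a, an axonal kinesin, had the smallest p of the 23, and was singled out after its values were seen. It ran from 4.38 to 170 RPKM in controls (median 52.9), from 0.271 to 52.4 at Day 5 (median 7.89) and from 2.16 to 97.3 at Day 15 (median 12.3). Its Day 5 difference was -2.30 (SE 0.79, limma adjusted p = 0.0612) and did not pass as deposited. Once libraries were scaled by upper quartile, by sum or by quantiles it passed as lower, at -3.25, -3.16 and -3.15 (limma adjusted p = 0.0129, 0.0168 and 0.0129). It also passed as lower with a pseudocount of 0.1 (-2.62, limma adjusted p = 0.0264). Among all 23 genes, the lowest Day 5 limma adjusted p was also under 0.05 with the replicate number as a block (0.0424). The same held without Control replicate 3 (0.0488), Day 5 replicate 4 (0.0450) or Day 5 replicate 7 (0.0476), but without no other single library. For the 6 genes at a mean RPKM of at least 5 the lowest was 0.0371 in limma. Whether any of the 23 was called at Day 5 thus hung on the processing. Kif5a did not pass with detected genes as a covariate (-3.47, limma adjusted p = 0.104), with no filter (adjusted p = 0.235), or in replicate numbers 1 to 6 (-1.38, adjusted p = 0.502) or 7 to 10 (-3.45, adjusted p = 0.117).

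**Figure D5:**
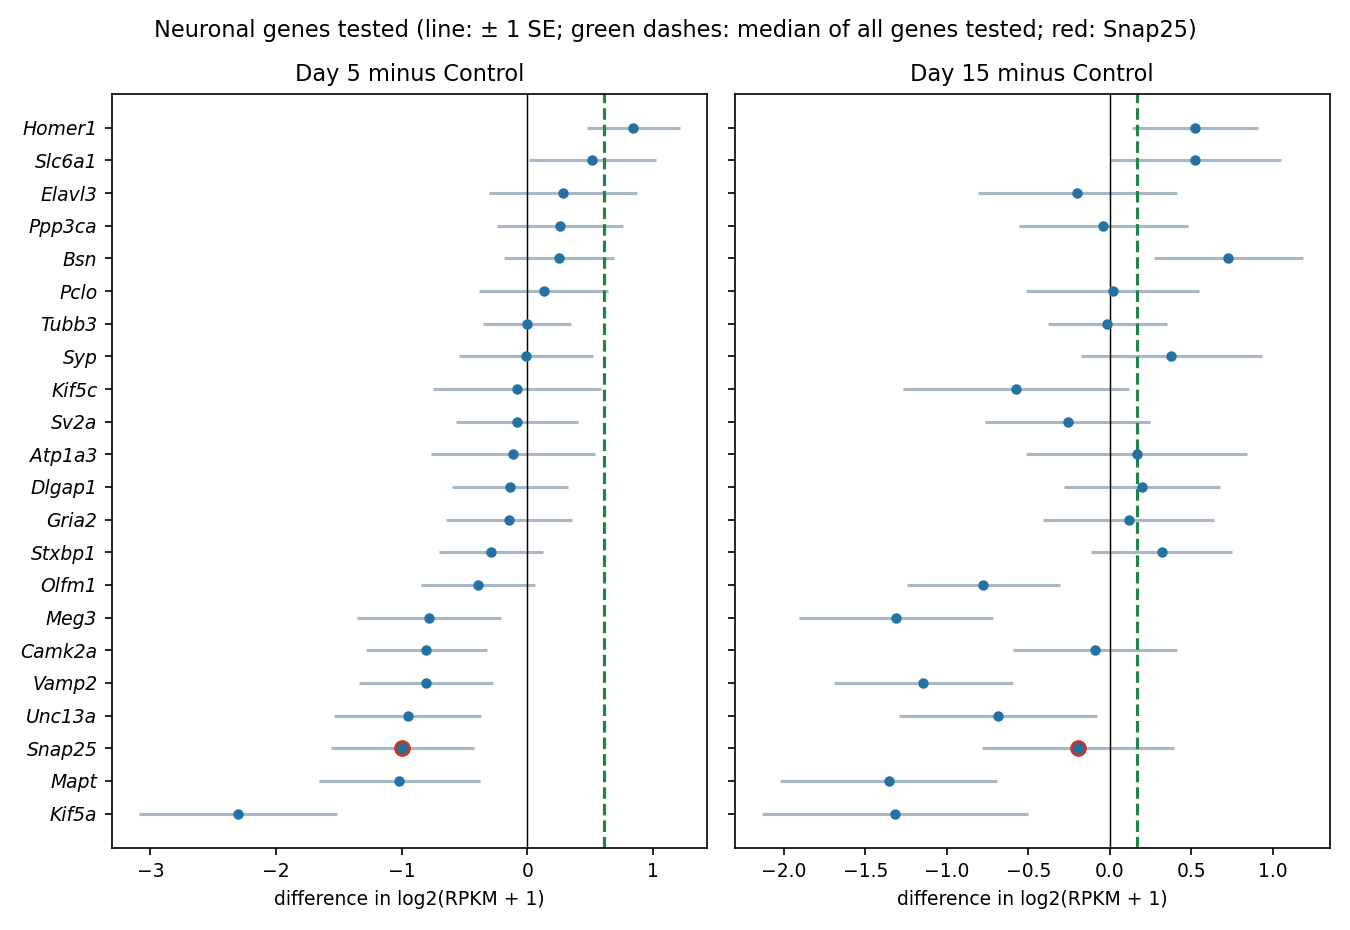
Difference from control in log2(RPKM + 1) of 22 of the 23 neuronal genes tested, at Day 5 and at Day 15 (panels), with 1 SE to either side, the median of all genes as a green dashed line (0.61 and 0.17) and Snap25 in red. At Day 5, 16 of the 22 lie below 0, and Kif5a is lowest at -2.30.

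Markers of other cells moved in the same comparisons. At Day 5, 8 of 9 tested macrophage and leukocyte genes and 6 of 14 microglia genes were called higher, beside 260 of all 4319 genes. The summed RPKM of 12 macrophage genes ran from 1.96 to 88.5 in controls and from 136 to 2619 at Day 5, without overlap, and that of 14 microglia genes from 12.1 to 127 and from 102 to 757, with overlap. At Day 15 none of either list was called, beside 4 of 4319 genes. There, 5 of 9 and 9 of 14 had an unadjusted p under 0.05 in limma, beside 383 of 4319 genes. None of the defining markers on these lists was at 0 throughout a group. Their part in the neuronal values was not tested. Of the mature oligodendrocyte genes at Day 5, 0 of 13 were called by limma, beside 261 of 4319 genes. An unadjusted p under 0.05 was found for 1 of 13, beside 1121 of 4319 genes. These 13 genes had a median Day 5 difference of -0.62. The summed RPKM of the mature oligodendrocyte list ran from 191 to 1364 in controls and from 132 to 1288 at Day 5.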

How the data were processed

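The authors deposited RPKM values in 1 table, named so in its title, with 1 column per library. The sources used here do not say how RPKM was derived. Laser-captured RNA was turned into amplified cDNA (Nugen Ovation) and sequenced from both ends at 100 bp, per the labels' protocols. The submitters' processing notes name CASAVA 1.8.3, STAR 2.1.4a, HTSeq and build mm9. Values did not step in whole reads, so the depth behind them is unknown.

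Groups came from the sample titles. Genes reaching 1 RPKM in 7 or more libraries were taken as log2(RPKM + 1) and fitted for all 3 groups together with limma 3.58.1 in R 4.3.3 (intensity trend, robust variances, two-sided). P-values were adjusted by Benjamini-Hochberg over every gene fitted, and an adjusted p under 0.05 was a call. The fit was tested on simulated data. Genes below the filter were fitted with no filter.

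The 9 genes and all gene lists were chosen with earlier results of these data known. By the naming rule all 9 are reported, other neuronal genes if called (none was), Timp1 beside Syn1, and the 3 genes most alike by Spearman's rho to each of the 9 that passed the filter, without predicted models. Kif5a and the leading neuronal genes of the closing observations fall outside this rule and were named after their values were seen. The values of 1 other neuronal gene are not reported here. Summaries used Python 3.11.15.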

Additional observations from a re-analysis of the deposited data

Results flagged for a closer look

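Of 27 groups looked at (9 genes in 3 groups, on the log2(RPKM + 1) scale), 9 had 1 library that lay farther from its neighbour, relative to the range of the group, than Dixon's 95% limit allows. Chance alone gives about 1 in 20. There were 6 at Day 15, 2 at Day 5 and 1 in controls. Genes that are near 0 in most libraries give such gaps easily, and whether that accounts for the number was not tested.

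At Day 15, Snap25 in replicate 6 held 56.0 RPKM, with the next library at 2.46. Syn1 was also apart in that library, at 3.52 RPKM with the next at 0.252. Stmn2 in Day 15 replicate 3 held 36.4 RPKM, with the next at 2.06, and Nefl in the same library held 0.0259 RPKM, with the next at 0.00723. Nefm in Day 15 replicate 5 held 1.39 RPKM (next 0.450) and Syt1 in Day 15 replicate 9 held 1.20 RPKM (next 0.371). At Day 5, Syn1 in replicate 6 held 1.39 RPKM (next 0.162) and Stmn2 in replicate 1 held 0.669 RPKM (next 0.151). In controls, Slc17a7 in replicate 6 held 3.18 RPKM (next 0.993).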

How the results depend on the processing

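In all 3 comparisons, 0 of the 9 genes were called by limma under each alternative that could be run, with and without the filter. With a mean RPKM of at least 5 required, none of the 9 genes was left to test. The Day 5 difference of Snap25 kept its sign, from -1.75 (quantile normalization) to -0.60 (number of detected genes as a covariate, limma adjusted p = 0.814), and from -1.20 to -0.87 on leaving out each library in turn. The Day 15 difference from control turned to 0.66 in replicate numbers 1 to 6 and to 0.0585 without Day 15 replicate 2, and ran from -0.90 to 0.06 on leaving out each library in turn. The Day 15 difference from Day 5 ran from 0.10 to 1.05 in the same way. Combining no filter with the other alternatives, and leaving out the 2 libraries rich in Rn45s or Day 15 replicates 3 and 6, were chosen after seeing the data. Detections among the 9 genes depended on the threshold. In controls, 17 at 1 RPKM became 77 above 0, 42 at 0.1 and 2 at 5 RPKM. At Day 5, 7 became 66, 41 and 0, and at Day 15, 8 became 47, 27 and 2. Without Day 15 replicates 3 and 6 the 8 became 3.

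The count over all genes at Day 5, 261 as deposited, was 553 with a pseudocount of 0.1, 119 at a mean RPKM of at least 5, 24 with no filter, 22, 33 and 20 after upper-quartile, sum and quantile scaling, 398 with the number range as a covariate, 4 in each number range, 0 with detected genes as a covariate, and from 96 (without Day 5 replicate 3) to 418 (without Day 5 replicate 7) on leaving out single libraries. It was lower by over 1.5 times, at between 134 and 170, without each of Control replicates 1, 3, 4, 6, 9 and 10 and Day 5 replicates 1 and 10. At Day 15 the 4 genes became 38, 11, 0, 9, 1 and 4 in the same order up to quantile scaling, and from 0 (without any 1 of Control replicates 2, 3, 4 and 6 to 10, Day 5 replicates 1, 4, 7, 8 and 10 or Day 15 replicate 2) to 6 (without Day 15 replicate 8) on leaving out single libraries. Between the stroke days the 0 genes became 1 without Day 5 replicate 7 and 8 without Day 15 replicate 5.

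Same-numbered libraries did not deviate together: 0 of 20 pairs correlated above 0.1 (median 0.01), and the same-numbered library was the closest in 6 of 40 cases. With the replicate number as a block, the Snap25 differences were -1.30 at Day 5, -0.09 at Day 15 and 1.21 between the stroke days (limma adjusted p = 0.118, 0.980 and 0.345), and 499 genes were called at Day 5.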

Other observations

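The leading gene of the wider neuronal set also changed between libraries. Kif5a was the highest of the 101 neuronal genes in 7 of 10 controls, 2 of 8 Day 5 libraries and 2 of 7 Day 15 libraries. Different leading genes numbered 3 in controls and 5 at Day 5. The 7 Day 15 libraries were led by 6 different genes: Snap91, a clathrin adaptor of synapses, at 113 RPKM in replicate 2, Syp, the vesicle protein synaptophysin, at 65.1 in replicate 3, Elavl3, a neuronal RNA-binding protein, at 22.7 in replicate 5, Meg3, a long noncoding RNA, at 4.53 in replicate 7, Gria2, an AMPA receptor subunit, at 4.18 in replicate 8, and Kif5a at 97.3 and 11.9 in replicates 6 and 9. These genes were named after their values were seen.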
